A study of Mus musculus with 12 samples.

Results

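The genes described here are 5 members of the CCN family of matricellular proteins (Ccn1, Ccn2, Ccn3, Ccn4 and Ccn5) and 3 further genes known as targets of the transcriptional coactivator YAP (Ankrd1, Amotl2 and Lats2). They were taken by gene symbol from the platform annotation, and each of the 8 had exactly 1 probe set that carries its symbol alone, out of 19938 genes with such a probe set. Expression was measured on 12 arrays of cultured cardiac colony-forming-unit fibroblasts (cCFU-F), interstitial cells sorted from the hearts of male C57BL/6 mice aged 12 weeks as positive for SCA1 and PDGFRα and negative for CD31, and kept as bulk cultures at passage P0. Each of the 4 groups had 3 arrays. One was left untreated, a second received the growth factor PDGF-AB at 50 ng/ml, and the others received AG1296, an inhibitor of the PDGF receptor kinases that also acts on related kinases, at 1 uM or 10 uM without added ligand. The labels used here state neither the length of treatment nor the vehicle nor the number of mice behind an array, so a vehicle effect cannot be told apart from that of a treatment, and p-values measure the spread between arrays, which may be technical. All values are log2 expression per probe set, and a difference of 1 on this scale is a doubling. In bulk samples, fewer cells of a type and less RNA per cell cannot be told apart.

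YAP and its relative TAZ (encoded by Wwtr1) enter the nucleus when cells spread on stiff matrix or when the Hippo kinases are inactive, and there they switch on genes through the DNA-binding TEAD factors. Ccn1 (formerly Cyr61) and Ccn2 (formerly Ctgf) are the textbook readouts of this activity, and both encode secreted proteins that bind integrins and matrix. Ccn2 is also a target of TGF-beta and a marker of fibrosis in the heart. Ccn3 (Nov), Ccn4 (Wisp1) and Ccn5 (Wisp2) encode relatives; CCN5 lacks the C-terminal module of the others and is known to oppose CCN2. Ankrd1 encodes a cardiac ankyrin repeat protein of muscle sarcomeres and nuclei. Amotl2 encodes an angiomotin that holds YAP at the cell membrane, and Lats2 the kinase that phosphorylates YAP, so these last genes are both targets and inhibitors of the pathway.

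Promoter sequences are shown first, because YAP acts on genes through TEAD factors, whose core recognition sequence is GGAATG. RefSeq promoter windows of 300 bases, reaching from 250 bases before to 50 bases after the start, were at hand for 4 of the 8 genes, Ccn1, Ankrd1, Amotl2 and Lats2 (build GRCm38.p6). The sequences are written 5′ to 3′ on the strand of the gene, and capitals mark GGAATG or its reverse complement. For Ccn1 (chr3:145649986-145650235, minus strand) and Ankrd1 (chr19:36119845-36120094, minus strand) the 250 bases before the start are shown, and for Amotl2 (chr9:102717727-102717756, plus strand) and Lats2 (chr14:57746102-57746131, minus strand) the 30 bases around the match.
Ccn1: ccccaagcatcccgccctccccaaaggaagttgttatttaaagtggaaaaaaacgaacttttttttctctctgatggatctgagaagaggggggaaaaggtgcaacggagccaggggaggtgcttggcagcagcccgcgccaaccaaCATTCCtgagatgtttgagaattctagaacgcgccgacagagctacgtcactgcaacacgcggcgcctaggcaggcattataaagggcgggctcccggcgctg
Ankrd1: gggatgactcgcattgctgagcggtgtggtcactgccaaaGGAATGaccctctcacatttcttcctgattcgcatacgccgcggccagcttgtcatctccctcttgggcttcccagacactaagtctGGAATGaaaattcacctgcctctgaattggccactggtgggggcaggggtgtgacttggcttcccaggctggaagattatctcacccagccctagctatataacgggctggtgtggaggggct
Amotl2: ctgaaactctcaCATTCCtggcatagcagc
Lats2: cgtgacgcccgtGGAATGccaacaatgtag
Counted from the start set for each window, the leftmost base of the match lies at -103 in Ccn1, at -210 and -123 in Ankrd1, at -65 in Amotl2 and at 5 in the first of 2 Lats2 windows. For Ccn1 and Ankrd1 that start is the annotated gene start. The Amotl2 and Lats2 matches lie inside the annotated genes (chr9:102717091-102733418 and chr14:57689662-57746212), downstream of the gene start. The second Lats2 window had 0 matches. GGAATG was searched on both strands and occurs in 14.7% of the 32841 promoter windows of this length. The longer form GGAATGT, which contains it, was found in Ccn1 and Amotl2 and occurs in 3.84% of windows. The AP-1 motif TGANTCA and the CArG box of SRF had 0 matches in these windows, against 7.81% and 1.63% of all windows. A match is a string of letters and not a measured binding site.

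Ccn5 was the gene of this set with the widest range. In untreated cells its 3 arrays read 10.61, 10.46 and 10.58. With PDGF-AB they read 10.12, 9.75 and 9.74, at AG1296 1 uM 11.27, 11.12 and 11.15, and at AG1296 10 uM 11.19, 11.26 and 11.29. Every PDGF-AB array thus lay below every untreated one, and every AG1296 array above them, while the doses overlapped. The group means were 10.55 ± 0.08 (SD, n = 3) in untreated cells, 9.87 ± 0.21 with PDGF-AB, 11.18 ± 0.08 at 1 uM and 11.25 ± 0.06 at 10 uM. Among the 7 other genes, the span over the 12 arrays was 0.42 for Ccn1 to 0.73 for Lats2, against 1.56 for Ccn5.

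**Figure D1:**
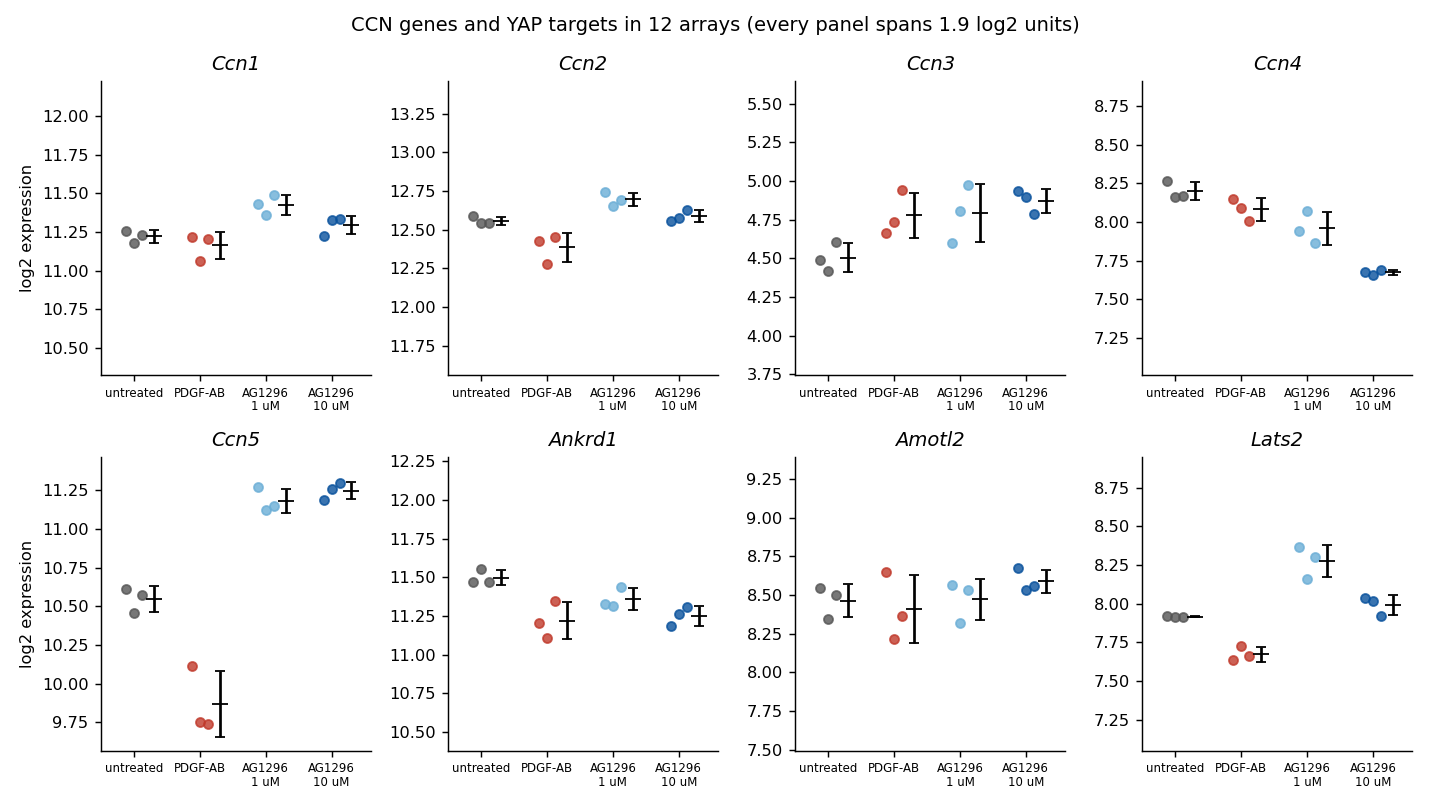
Log2 expression of the 8 genes (vertical axis, each panel spanning the same number of log2 units) in the 4 groups (horizontal axis). Points are arrays, and the bars beside them show mean ± SD (n = 3); Ccn5 runs from 9.74 with PDGF-AB to 11.29 at AG1296 10 uM, whereas Amotl2 overlaps among all groups.

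PDGF-AB was compared with untreated cells to ask which of these genes respond to added ligand. Of the 8 genes 1 was called, with a Benjamini-Hochberg adjusted p under 0.05 over all genes (limma), where 0.331% of all genes were called and 0.211% were called lower. This was Ccn5, which fell by 0.68 ± 0.11 (log2 difference ± SE), a 1.60-fold change (adjusted p = 0.0144). The Ccn5 call did not hold without PDGF-AB replicate 2 (adjusted p = 0.0659) or 3 (0.0608), without untreated replicate 1 (0.0899) or 3 (0.0763), and in a fit of the 6 arrays compared alone (0.167). The difference stayed between -0.80 and -0.61 whichever of the 12 arrays was left out.

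The other 7 genes did not pass with PDGF-AB. Ankrd1 was at 11.47, 11.55 and 11.47 in untreated cells and at 11.21, 11.11 and 11.35 with the ligand, without overlap. Its difference was -0.28 ± 0.09 (adjusted p = 0.346), and of the alternatives it passed only with an intensity trend and robust moderation of the variance (0.0172). Ankrd1 is also a cardiomyocyte gene. Of 10 cardiomyocyte markers 0 passed in this comparison. They averaged 3.85 to 4.01 per untreated array and 3.94 to 3.98 with PDGF-AB, and 6 of them (Myh6, Myh7, Ttn, Nppa, Myl2 and Myl3) lay below every array median. Over the 12 arrays Actn2 averaged 3.91, Tnni3 4.08 and Actc1 5.46. Tnnt2, the highest of the list, read 7.03, 7.04 and 6.95 in untreated arrays and 7.28, 7.21 and 7.32 with PDGF-AB, above them and opposite to Ankrd1. In the lists of fibroblast, endothelial, pericyte, smooth muscle, leukocyte and mesothelial markers, 0 genes were called in this comparison as well. Over all genes 0.331% were called. The pericyte averages did not overlap, at 4.17 to 4.33 per untreated array and 4.44 to 4.48 with PDGF-AB. Averages of the other marker lists overlapped, and the part of markers in the differences of the 8 genes was not tested. Lats2, at 7.92, 7.91 and 7.91 in untreated arrays, read 7.63, 7.72 and 7.66 with PDGF-AB, again without overlap (difference -0.24 ± 0.08, adjusted p = 0.380). Ccn2 read 12.59, 12.54 and 12.54 in untreated arrays and 12.43, 12.28 and 12.46 with the ligand, a difference of -0.17 with a 95% interval of -0.34 to 0.00 (adjusted p = 0.593). Ccn1 overlapped between these groups, at 11.26, 11.18 and 11.23 against 11.22, 11.06 and 11.21 (difference -0.06, interval -0.24 to 0.12). Of the 8 genes 6 did not overlap between these groups, 5 lower and 1 higher, where 13.3% of all genes did not overlap, 6.61% lower and 6.74% higher. The gene that lay higher was Ccn3, at 4.66, 4.73 and 4.94 against 4.49, 4.42 and 4.60, with a difference of 0.27 ± 0.11 (adjusted p = 0.50). Ccn4 lay lower without passing, at 8.15, 8.09 and 8.01 against 8.26, 8.16 and 8.17 (difference -0.12, interval -0.30 to 0.06). Amotl2 overlapped, at 8.65, 8.22 and 8.36 against 8.55, 8.34 and 8.50 (difference -0.05, interval -0.30 to 0.20). The median difference of the 8 genes was -0.14, beside 0.01 over all genes tested.

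AG1296 was added without ligand, so its comparison with untreated cells asks what the inhibitor does to these genes in plain culture. At 1 uM, 2 of the 8 genes were called, both higher, where 3.2% of all genes were called and 1.88% were called higher. Ccn5 rose by 0.63 ± 0.11, a 1.55-fold change (adjusted p = 0.00352), and kept its call under each of the 21 alternatives (adjusted p up to 0.0257). Lats2 rose from 7.91 ± 0.0024 (SD, n = 3) to 8.37, 8.16 and 8.30 on the arrays of this dose, a difference of 0.36 ± 0.08 (SE; adjusted p = 0.0282). For Lats2 the call did not hold without AG1296 1 uM replicate 1 (adjusted p = 0.139) or 3 (0.0953), without untreated replicate 1 (0.091), 2 (0.0873) or 3 (0.0902), and with only the 6 arrays compared (0.0773). The difference stayed between 0.32 and 0.42 when any of the 12 arrays was left out.

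Markers of cell types were called at 1 uM beside Ccn5 and Lats2, and their part in those changes was not tested. Over all genes, 1.88% were called higher and 1.33% lower. Of 9 fibroblast markers, 3 were higher and 1 lower, and the list averaged 9.32 to 9.40 per untreated array and 9.52 to 9.57 per 1 uM array. Dcn, the matrix proteoglycan decorin, rose by 1.70 (adjusted p = 8.21e-07), Col1a1 by 0.51 (0.0131) and Col3a1 by 0.37 (0.048), while Pdgfra, a receptor of PDGF, fell by 0.91 (3.84e-05). These fibroblast genes thus went in opposite directions. Of 7 pericyte markers 1 was called, Mcam, lower by a difference of -1.42 (1.15e-06), with list averages of 4.17 to 4.33 in untreated cells and 4.001 to 4.14 at 1 uM. Of 7 mesothelial markers, Upk3b rose by 0.55 (0.00511), and Upk1b and Krt19 fell by 0.82 and 0.72 (0.000109 and 0.0158), with averages of 5.58 to 5.63 against 5.36 to 5.41. The endothelial marker Tek rose by 0.73 (0.000761), while its list of 8 overlapped, at 3.31 to 3.36 against 3.24 to 3.36. Tek read 3.52 in untreated cells and 4.25 at 1 uM, near the array medians of 4.02 to 4.13. In the smooth muscle, leukocyte and cardiomyocyte lists 0 markers were called.

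Other members at 1 uM had smaller differences that did not pass. Ccn1 was at 11.43, 11.36 and 11.49 on the 1 uM arrays, all above the untreated ones (difference 0.20 ± 0.08, adjusted p = 0.286). It passed with an intensity trend and robust moderation (0.0243) and under no other alternative. Ccn2, at 12.74, 12.65 and 12.69, also lay above all untreated arrays (difference 0.14 ± 0.08, adjusted p = 0.517). Ccn4 read 7.94, 8.07 and 7.86, below the untreated values of 8.26, 8.16 and 8.17 (difference -0.24 ± 0.08, adjusted p = 0.188). Ankrd1 lay below untreated as well, at 11.33, 11.31 and 11.44 (difference -0.14, interval -0.33 to 0.05). Ccn3 overlapped with untreated, at 4.60, 4.81 and 4.97 (difference 0.29, interval 0.05 to 0.53, adjusted p = 0.245), and so did Amotl2, at 8.56, 8.32 and 8.53 (difference 0.01, interval -0.24 to 0.26). The groups did not overlap for 6 of the 8 genes (20.3% of all genes), 4 higher and 2 lower (10.1% and 10.2% of all genes), and the median difference was 0.17 beside -0.01 over all genes.

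At 10 uM, 2 genes were called in opposite directions, where 1.88% of all genes were called, 1.21% higher and 0.672% lower. Ccn5 rose by 0.70 ± 0.11, a 1.62-fold change (adjusted p = 0.00328). Ccn4, a CCN gene first described as induced by Wnt1, fell by 0.52 ± 0.08, a 1.44-fold change (adjusted p = 0.00452). Its arrays read 7.68, 7.66 and 7.69, a spread of 0.016 (SD, n = 3) around 7.67, against 8.20 ± 0.06 in untreated cells. The Ccn4 and Ccn5 calls at 10 uM both held under each of the 21 alternatives, with adjusted p up to 0.0282 and 0.0194.

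At 10 uM the called markers included 2 of 5 smooth muscle genes, Myh11 (smooth muscle myosin) and Smtn (smoothelin), which rose by 0.54 and 0.43 (adjusted p = 0.0398 and 0.0141). That list averaged 5.07 to 5.25 per untreated array and 5.55 to 5.60 at 10 uM. Myh11 read 3.86 in untreated cells and 4.40 at 10 uM, near the array medians of 4.02 to 4.13. Over all genes, 1.21% were called higher at this dose and 0.672% lower. Of 9 fibroblast markers, Dcn rose by 0.75 (0.00155), Col3a1 by 0.54 (0.00655) and Col1a1 by 0.53 (0.0161), and Pdgfra fell by 0.40 (0.0361), with averages of 9.32 to 9.40 against 9.53 to 9.56. Again the fibroblast genes moved both ways. The mesothelial marker Upk1b fell by 1.13 (2.09e-05), with averages of its 7 genes at 5.58 to 5.63 against 5.36 to 5.44. Mcam fell by 0.59 (0.00381), with pericyte averages of 4.17 to 4.33 against 4.33 to 4.37. In the endothelial, leukocyte and cardiomyocyte lists 0 were called, and the part of these markers in the Ccn4 and Ccn5 changes was not tested.

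The remaining 6 genes did not pass at 10 uM. Lats2 read 8.04, 8.02 and 7.92, the lowest only just above the untreated arrays (difference 0.08, interval -0.10 to 0.25). Ankrd1, at 11.18, 11.26 and 11.31, lay below them (difference -0.25 ± 0.09, adjusted p = 0.256) and passed with an intensity trend and robust moderation (0.0151). Ccn3, at 4.94, 4.90 and 4.78, lay above them by 0.37 ± 0.11 (adjusted p = 0.144) and of the alternatives passed only when dim genes were filtered out (0.0468). That filter kept 9969 of the 19938 genes and called 660 of those kept (6.62%), beside 375 of all genes (1.88%) without it. The Ccn3 values lie close to the array medians of 4.02 to 4.13. Ccn1 at 11.23, 11.32 and 11.33, Ccn2 at 12.56, 12.58 and 12.63, and Amotl2 at 8.67, 8.54 and 8.56 overlapped with untreated, with differences of 0.07, 0.03 and 0.13 and intervals that together reached from -0.14 to 0.38. In all, 5 of the 8 genes did not overlap (18% of all genes), 3 higher and 2 lower (9.78% and 8.19% of all genes). The median difference was 0.07, beside 0.01 over all genes. The 3 comparisons with untreated cells share the same 3 untreated arrays, so that an unusual untreated array would move all of them.

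**Figure D2:**
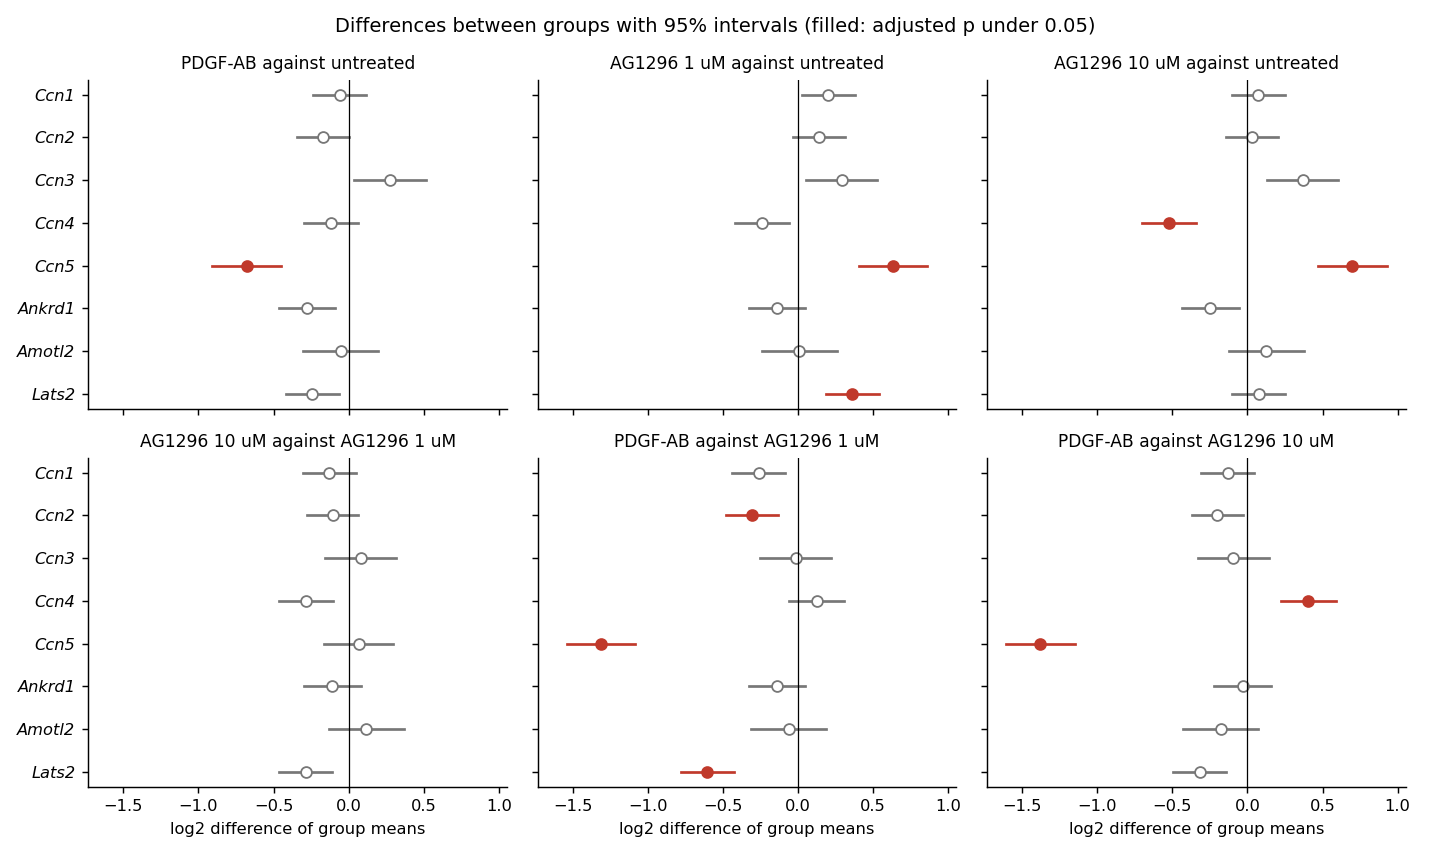
Log2 differences between group means (horizontal axis) for the 8 genes (vertical axis) in 6 comparisons, with 95% intervals from the limma fit. Filled red points have an adjusted p under 0.05, among them Ccn5 at -0.68 with PDGF-AB, 0.63 at AG1296 1 uM and 0.70 at 10 uM.

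The AG1296 doses were compared directly to see whether the response depended on the amount of inhibitor. None of the 8 genes was called by limma (0 of 8, where 0.376% of all genes were called). Lats2 and Ccn4 differed most, both lower at 10 uM than at 1 uM. Their log2 differences were -0.29 ± 0.08 (adjusted p = 0.239) and -0.28 ± 0.08 (adjusted p = 0.257). The count was also 0 with an intensity trend and robust moderation. The dose groups did not overlap for 5 of the 8 genes, all lower at 10 uM (Ccn1, Ccn2, Ccn4, Ankrd1 and Lats2), where 15.9% of all genes did not overlap and 7.03% were lower without overlap. For Ccn5 the difference between doses was 0.07 with a 95% interval of -0.16 to 0.29, which spans 0. Of the cell type markers, Mcam and Pdgfra were called higher at 10 uM than at 1 uM (0.83 and 0.51, adjusted p = 0.0011 and 0.0282). Dcn was called lower (-0.96, adjusted p = 0.000998), and the part of these markers was not tested.

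Cells given the ligand were also compared with cells given the inhibitor without ligand. The arrays do not measure receptor activity. Between PDGF-AB and AG1296 1 uM, 3 of the 8 genes were called, all lower with the ligand, where 5.21% of all genes were called and 2.93% were called lower. Ccn5 differed by -1.31 ± 0.11, a 2.48-fold change (adjusted p = 3.45e-06), and Lats2 by -0.60 ± 0.08, a 1.52-fold change (adjusted p = 0.000401). Both of these calls held under all 21 alternatives (adjusted p up to 0.00785). Ccn2 differed by -0.31 ± 0.08 (adjusted p = 0.0398), but this call was lost on leaving out 11 of the 12 arrays in turn, all except AG1296 10 uM replicate 3 (adjusted p up to 0.152). Quantile normalization (0.064) and a fit of the 6 arrays compared (0.151) ended it too. Ccn1 differed by -0.26 ± 0.08 without passing (adjusted p = 0.0987). It passed when dim genes were filtered out (0.0262) and with an intensity trend and robust moderation (0.00208). The dim filter called 13.7% of the 9969 genes it kept (1369, beside 1039 of all genes in the main fit). The trend with robust moderation called 7.2% of all genes. The remaining members, Ccn3, Ccn4, Ankrd1 and Amotl2, had differences of -0.01, 0.12, -0.14 and -0.06. The groups did not overlap for 4 of the 8 genes, all lower with PDGF-AB (Ccn1, Ccn2, Ccn5 and Lats2), where 21.8% of all genes did not overlap and 10.4% were lower.

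Between PDGF-AB and AG1296 10 uM, 2 genes were called, where 3.42% of all genes were called, 1.42% higher and 2% lower. Ccn5 was lower with the ligand by a difference of -1.38 ± 0.11, a 2.60-fold change (adjusted p = 4.77e-06). Ccn4 was higher with the ligand by 0.41 ± 0.08 (adjusted p = 0.0143). For Ccn4 the call did not hold without AG1296 10 uM replicate 1 (adjusted p = 0.055) or 2 (0.058), without PDGF-AB replicate 1 (0.0508) and with only the 6 arrays compared (0.0699). Lats2 lay near the threshold, with a difference of -0.32 ± 0.08 (adjusted p = 0.0517). It passed without AG1296 1 uM replicate 2 (0.0499), with quantile normalization (0.0456), with dim genes filtered out (0.0106) and with an intensity trend and robust moderation (0.00585). A random replicate block also brought it below the threshold (0.0379). The dim filter called 10.4% of the 9969 genes it kept here (1032, beside 682 of all genes in the main fit). The intensity trend called 5.4% of all genes, beside 3.42% in the main fit. Ccn2 passed with the trend and robust moderation alone (0.00837, difference -0.20). For 5 of the 8 genes the groups did not overlap (18.1% of all genes), with Ccn4 higher under the ligand (8.47%) and Ccn1, Ccn2, Ccn5 and Lats2 lower (9.59%).

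Cell type markers also differed between ligand and inhibitor, and their part in the differences of Ccn2, Ccn4, Ccn5 and Lats2 was not tested. Over all genes, 2.28% were called higher with PDGF-AB than at 1 uM and 2.93% lower. Against 10 uM these shares were 1.42% and 2%. Tnnt2, a cardiomyocyte marker, was higher with PDGF-AB than at 1 uM by 0.38 and than at 10 uM by 0.46 (adjusted p = 0.0258 and 0.0099), and the 9 other markers of that list did not pass. Pericyte markers were higher with PDGF-AB than at 1 uM in 3 of 7 cases and than at 10 uM in 0. These were Mcam (1.12, adjusted p = 3.85e-06), Notch3 (0.54, 0.00788) and Cspg4 (0.66, 0.0317), and the list averaged 4.44 to 4.48 per PDGF-AB array, 4.001 to 4.14 at 1 uM and 4.33 to 4.37 at 10 uM. Of 9 fibroblast markers, 3 were higher than at 1 uM, namely Pdgfra (1.04, 5.58e-06), Ddr2 (0.33, 0.03) and Thy1 (0.41, 0.0338), and Dcn was lower (-2.16, 3.83e-08). Against 10 uM, Pdgfra was higher (0.53, 0.003) and Dcn lower (-1.21, 1.19e-05). So the called fibroblast genes lay on both sides, with list averages of 9.39 to 9.49 under the ligand. Of 7 mesothelial markers, Upk1b was higher than at 1 uM and at 10 uM (0.59 and 0.89, adjusted p = 0.00102 and 4.69e-05) and Upk3b lower (-1.03 and -0.78, 1.21e-05 and 0.00027). Krt19 was higher than at 1 uM (0.57, 0.0415), and the mesothelial averages ran from 5.36 to 5.59 with PDGF-AB. Lyz2, a leukocyte gene, was lower than at either dose (-0.79 and -1.02, 0.0239 and 0.00634), while its list averaged 3.50 to 3.58 with PDGF-AB, 3.57 to 3.63 at 1 uM and 3.55 to 3.69 at 10 uM. Tek was lower than at 1 uM (-0.49, 0.00907), and the endothelial averages overlapped between all groups. Smooth muscle markers were called against 10 uM only, where Myh11 and Smtn were lower (-0.60 and -0.34, 0.0137 and 0.0404) and the averages were 5.13 to 5.33 against 5.55 to 5.60. In these comparisons the group means of Cspg4, Tek and Myh11 ran from 3.61 to 4.40, near the array medians of 4.02 to 4.13.

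In an F test over the 4 groups, 3 of the 8 genes differed (5% of all genes). They were Ccn5 (adjusted p = 4.49e-06), Lats2 (0.00275) and Ccn4 (0.00725). Their orders of group means were not alike. Ccn5 descended from AG1296 10 uM through 1 uM and untreated to PDGF-AB, and only the doses, as neighbours in that order, were not called apart. Lats2 descended from 1 uM through 10 uM and untreated to PDGF-AB, with no neighbouring pair called although none of these pairs overlapped. Ccn4 descended from untreated through PDGF-AB and 1 uM to 10 uM, where the middle pair overlapped and no neighbouring pair was called. Ccn2 (F test adjusted p = 0.157), Ccn3 (0.227), Ankrd1 (0.237), Ccn1 (0.274) and Amotl2 (0.773) did not pass. PDGF-AB gave the lowest of the 4 group means in 6 of the 8 genes, all but Ccn3 and Ccn4, where this holds for 24.3% of all genes. Ccn6, the remaining CCN gene, lay below the median of its own array on 12 of 12 arrays, with group means of 3.20 to 3.37, and passed in no comparison.

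The classical YAP readouts Ccn1 and Ccn2 followed each other from array to array. Over the 12 arrays their Pearson r was 0.91, and after each group mean was subtracted it was 0.80. Both quantities describe the same 12 RNA samples, which share labelling and normalization, and carry no test. The lowest array for both genes was PDGF-AB replicate 2, at 11.06 for Ccn1 and 12.28 for Ccn2. Between Ankrd1 and Ccn2, r was 0.46 over all arrays and 0.65 within groups. Between Ccn5 and Lats2 it was 0.82 over all arrays and -0.09 within groups. Other pairs came close to Ccn1 and Ccn2. Ccn5 and Amotl2 had an r of 0.79 within groups and 0.50 over all arrays. Over all arrays Ccn2 reached 0.87 with Lats2 and 0.86 with Ccn5, beside -0.12 and 0.49 within groups.

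**Figure D3:**
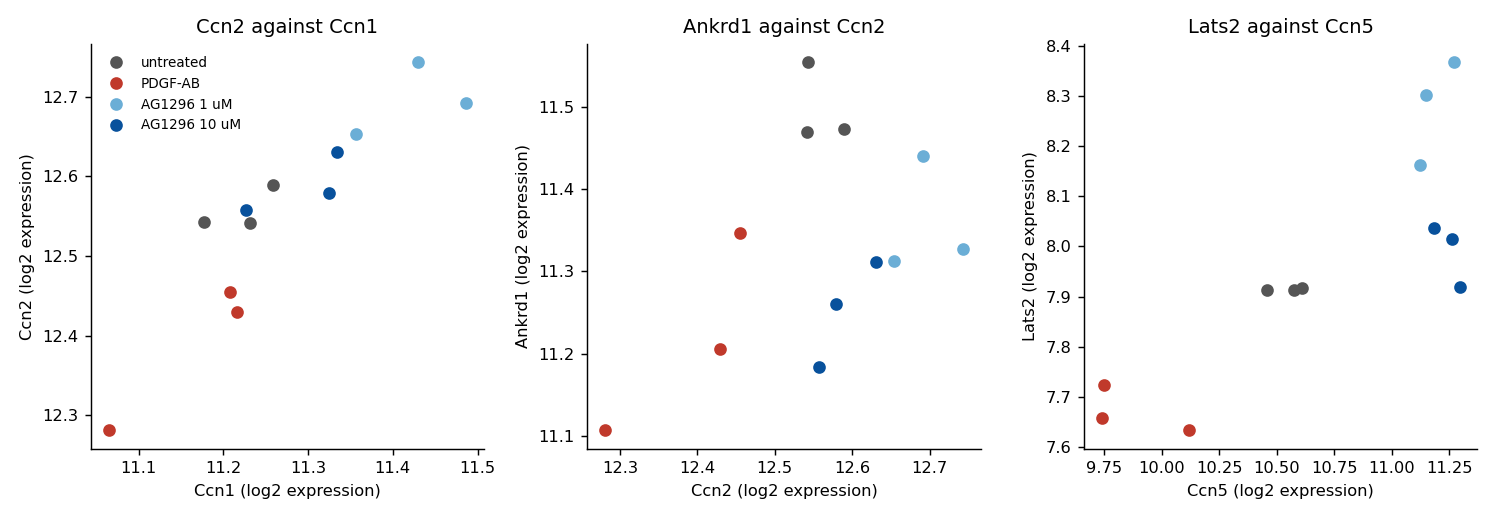
Log2 expression of 3 pairs of genes, with 1 point per array (n = 12) coloured by group; the axes are cut to the range of the values. Ccn1 and Ccn2 lie along a diagonal (r = 0.91) from PDGF-AB replicate 2 up to the AG1296 1 uM arrays, and Ccn5 and Lats2 separate the groups.

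Genes that resembled the 3 responding members were sought by Pearson r over the 12 arrays, as a description. The pattern most like Ccn5 was that of Map2, a microtubule-associated protein (r = 0.99), followed by Adamts5, a protease of aggrecan and versican (0.99), and Jag1, a Notch ligand (0.98). Map2 went from 7.29 ± 0.09 (SD, n = 3) in untreated cells to 6.26 ± 0.28 with PDGF-AB, 8.26 ± 0.10 at 1 uM and 8.34 ± 0.03 at 10 uM. Jag1, itself a known YAP target, was at 8.60 ± 0.09, 8.14 ± 0.09, 9.06 ± 0.01 and 9.14 ± 0.11 in the same order. For Lats2 the nearest genes were Cthrc1, a secreted protein of activated fibroblasts (0.97), Ifit3, an interferon-induced gene (0.97), and Dlc1 (0.96). Dlc1 was at 7.18 ± 0.06 in untreated cells, 6.87 ± 0.14 with PDGF-AB, 7.90 ± 0.02 at 1 uM and 7.43 ± 0.08 at 10 uM. For Ccn4 they were Arf3, a small GTPase (0.93), Hmox1 (0.92) and Cct7, a chaperonin subunit (0.91). Hmox1 went from 10.56 ± 0.10 in untreated cells to 9.57 ± 0.04 at 10 uM, a difference of -0.99 (adjusted p = 0.000119). Arf3 and Cct7 differed by -0.30 and -0.16 at 10 uM without passing (adjusted p = 0.117 and 0.411).

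**Figure D4:**
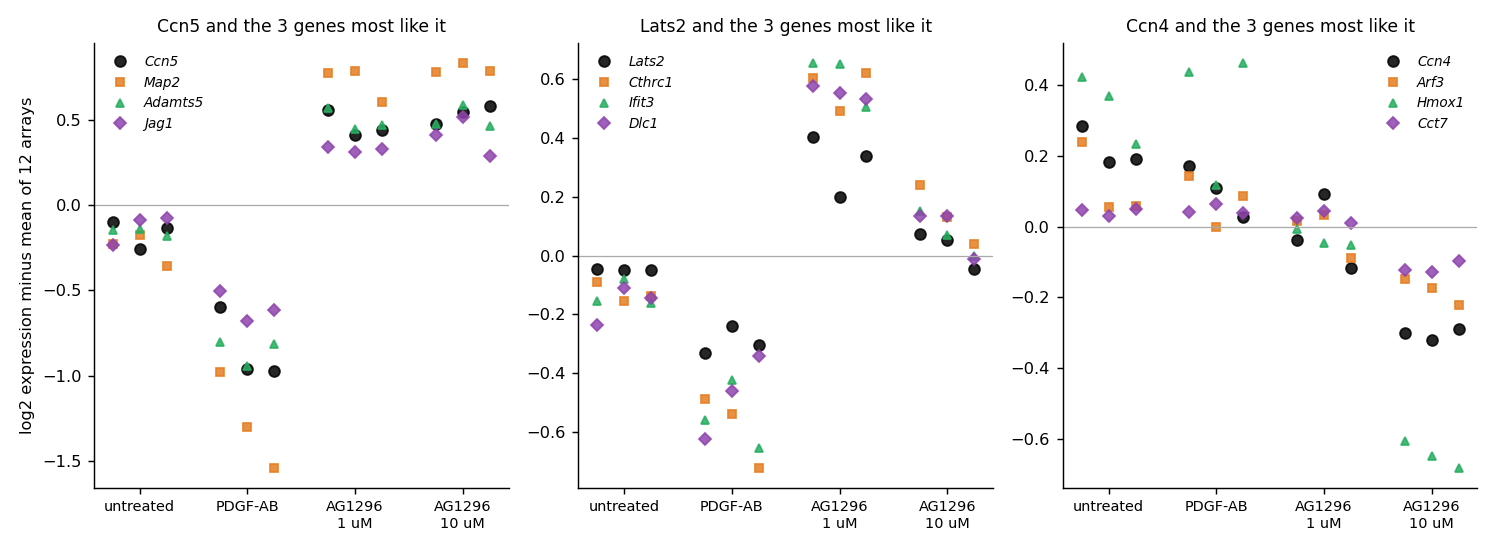
Log2 expression minus the mean of the 12 arrays (vertical axis) for Ccn5, Lats2 and Ccn4 (black) and the 3 genes with the highest Pearson r to each (coloured), by group with 3 arrays each. The Map2 means run from 6.26 with PDGF-AB to 8.34 at AG1296 10 uM on the uncentred scale, and Hmox1 falls from 10.56 to 9.57 between untreated and 10 uM.

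The other genes of a YAP signature in common use were followed as well. All 17 were measured. With PDGF-AB 0 rose and 1 fell (0.12% of all genes rose and 0.211% fell). With AG1296 1 uM 4 rose and 0 fell (1.88% and 1.33% of all genes), and with AG1296 10 uM 2 rose and 0 fell (1.21% and 0.672%). The medians of the list were 0.01, 0.01 and 0.05, beside 0.01, -0.01 and 0.01 over all genes, so the middle of the list lay near that of all genes. Ccdc80, a secreted matrix protein, rose from 7.94 ± 0.03 (SD, n = 3) to 9.31 ± 0.05 at 1 uM and 8.90 ± 0.06 at 10 uM (differences of 1.36 and 0.96, adjusted p = 1.15e-06 and 5.42e-05). Tgfb2, a TGF-beta ligand, rose by 0.82 and 0.80 (adjusted p = 0.00124 and 0.003). Igfbp3, a binding protein of insulin-like growth factors, rose by 1.09 at 1 uM (adjusted p = 0.00126). Its untreated mean of 4.65 lay close to the array medians of 4.02 to 4.13, and its 1 uM mean was 5.74. All of these calls held under each alternative tried on them.

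F3, which encodes tissue factor, was called with ligand and with inhibitor. It was at 7.66 ± 0.08 in untreated cells, 6.92 ± 0.25 with PDGF-AB, 8.31 ± 0.12 at AG1296 1 uM and 7.55 ± 0.07 at 10 uM (SD, n = 3). It fell with PDGF-AB (difference -0.74, adjusted p = 0.0158) and rose at 1 uM (0.65, adjusted p = 0.00618). For F3 the PDGF-AB call did not hold without PDGF-AB replicate 2 (adjusted p = 0.0572), without untreated replicate 1 (0.0537), 2 (0.0941) or 3 (0.0829), and with only the 6 arrays compared (0.157). Between PDGF-AB and AG1296 1 uM, 6 of the 17 genes were lower with the ligand and 0 higher, where 2.93% of all genes were lower and 2.28% higher. Against AG1296 10 uM, 3 were lower and 0 higher, where 2% of all genes were lower and 1.42% higher. Ccdc80 differed by -1.55 and -1.15 from the 2 doses (adjusted p = 1.13e-07 and 4.19e-06). Tgfb2 differed by -1.35 and -1.33 (7.7e-06 and 1.72e-05) and F3 by -1.39 and -0.62 (5.12e-06 and 0.00762). Igfbp3 was lower than at 1 uM (-0.82, adjusted p = 0.00649). These 4 calls against 1 uM and the 3 against 10 uM held under each alternative, and the other 2 against 1 uM did not. Between the doses 0 of the 17 genes were higher at 10 uM and 1 was lower, F3, where 0.181% of all genes were lower.

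Among Hippo pathway genes, calls against untreated cells were found at AG1296 1 uM only. Of 26 listed genes 25 were measured (Stk3 had no probe set under its symbol). With PDGF-AB 0 rose and 0 fell (0.12% and 0.211% of all genes), and at 1 uM 2 rose and 0 fell (1.88% and 1.33%). At 10 uM again 0 rose and 0 fell (1.21% and 0.672%). The 1 uM rises were those of Vgll3, a TEAD cofactor, from 9.93 ± 0.04 to 10.43 ± 0.05 (SD, n = 3; difference 0.50, adjusted p = 0.00164), and Wwc2, a scaffold that activates LATS kinases (0.40, adjusted p = 0.024). For Wwc2 the call did not hold without AG1296 1 uM replicate 1 or 2, without any 1 of the untreated arrays and with only the 6 arrays compared (adjusted p up to 0.113). Yap1 was at 8.20 ± 0.08 in untreated cells, 8.22 ± 0.17 with PDGF-AB, 8.00 ± 0.03 at 1 uM and 8.02 ± 0.07 at 10 uM, and did not pass the F test (adjusted p = 0.367). Wwtr1 lay between 8.65 and 8.70 in all group means (0.969) and Tead1 between 9.79 and 10.12 (0.296). Between PDGF-AB and AG1296 1 uM, 3 of the 25 were higher with the ligand and 5 lower, where 2.28% of all genes were higher and 2.93% lower. Of these 8 calls 4 held under each of 19 alternatives, namely those of Vgll3, Wwc2, Wwc1 and Tead2. The other 4 did not: Stk4, a Hippo kinase, was lost in 15 of 19 (difference -0.29, adjusted p = 0.047), Frmd6 in 9 (0.36, 0.0391), Map4k4 in 7 (0.38, 0.0222) and Nf2, the tumour suppressor merlin, in 6 (-0.43, 0.0287). Against 10 uM 2 were higher and 3 lower, where 1.42% and 2% of all genes were, and 3 of these 5 calls held under each alternative. Tead2, a TEAD factor, was higher with PDGF-AB than at either dose (0.48 and 0.49, adjusted p = 0.00879 and 0.0107). Wwc1, another LATS-activating scaffold, was lower (-0.89 and -0.86, adjusted p = 0.00113 and 0.00214), as was Vgll3 (-0.74 and -0.53, adjusted p = 2.79e-05 and 0.000844). The Wwc1 means were 5.41 at 1 uM, 5.37 at 10 uM and 4.51 with PDGF-AB, the last close to the array medians of 4.02 to 4.13. Wwc2 was lower than at 1 uM (-0.65, adjusted p = 0.0004) and than at 10 uM (-0.45, 0.0108), where the call was lost in 2 of 19 alternatives (adjusted p up to 0.063). Map4k4, higher than at 10 uM by 0.36 (0.0467), was lost in 13.

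**Figure D5:**
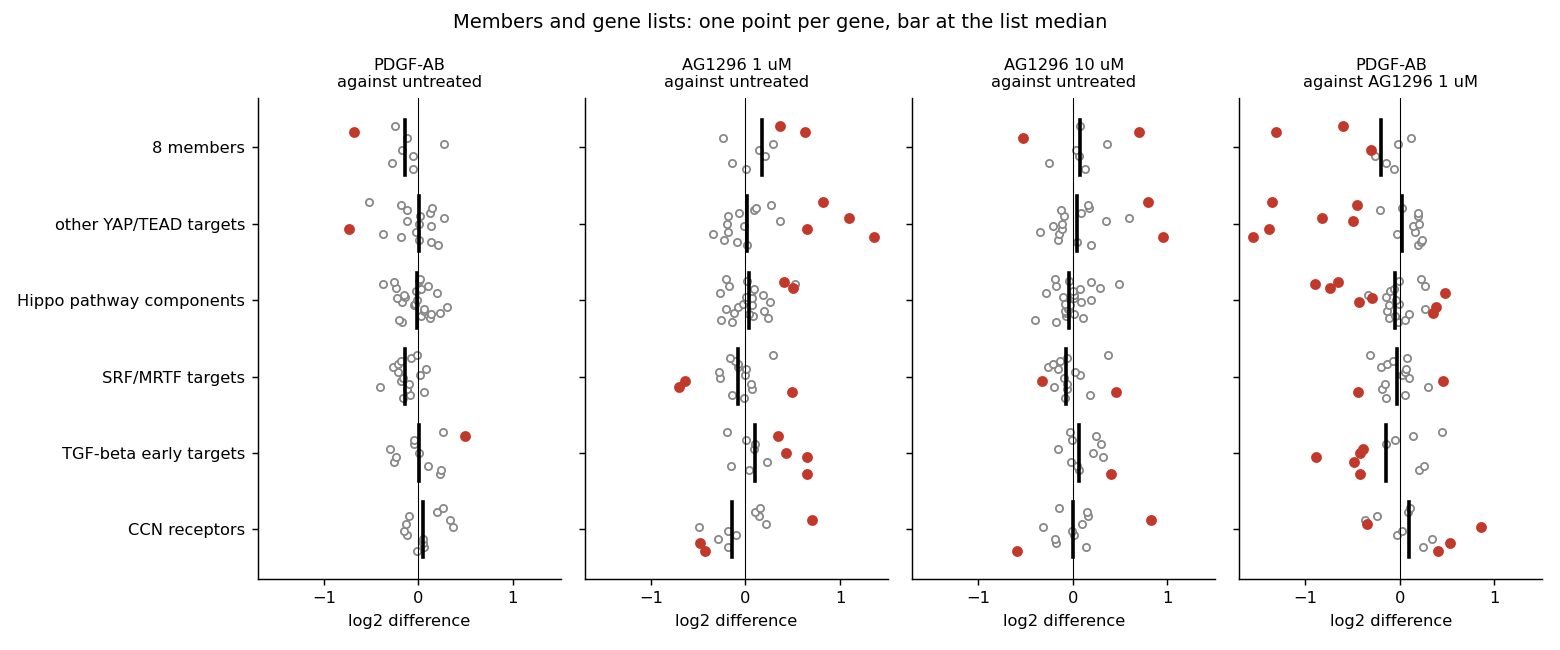
Log2 differences (horizontal axis) of the 8 genes and of 5 lists of related genes (vertical axis) in 4 comparisons, with 1 point per gene, red where the adjusted p was under 0.05, and a bar at the median. The 17 other YAP/TEAD targets have medians of 0.01 to 0.05 with a few genes such as Ccdc80 (1.36 at AG1296 1 uM) far to the side.

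Genes under SRF and its coactivators, which respond to actin tension beside YAP, were called in both directions. Of 16 measured, 0 rose and 0 fell with PDGF-AB (0.12% and 0.211% of all genes, list median -0.14). At 1 uM 1 rose and 2 fell (1.88% and 1.33% of all genes), and at 10 uM 1 rose and 1 fell (1.21% and 0.672%). Actn1, an actin crosslinker, rose by 0.50 and 0.46 (adjusted p = 0.00219 and 0.00611). Cnn1, a smooth muscle calponin, fell by 0.70 at 1 uM, and Fhl1, a LIM domain protein of muscle, fell by 0.64 (adjusted p = 0.00337 and 0.00017). The fall of Fhl1 at 10 uM (difference -0.32, adjusted p = 0.0408) did not hold in 14 of 19 alternatives. Between PDGF-AB and 1 uM, Fhl1 was higher with the ligand (0.46, adjusted p = 0.00156) and Actn1 lower (-0.44, 0.00336), 1 gene each way, where 2.28% and 2.93% of all genes were. Both calls held under each alternative. Against 10 uM 0 were higher and 2 lower (2% of all genes were lower), and neither call held throughout. Actn1 (-0.41, adjusted p = 0.00855) was lost with only the 6 arrays compared (0.0749), and Zyx, the focal adhesion protein zyxin (-0.39, 0.0269), in 7 of 19 alternatives (up to 0.111).

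Among 11 measured early targets of TGF-beta, 1 rose with PDGF-AB, 4 at 1 uM and 1 at 10 uM, where 0.12%, 1.88% and 1.21% of all genes rose. In these comparisons 0 fell, where 0.211%, 1.33% and 0.672% of all genes fell. The rise with PDGF-AB was that of Tgfb1, a TGF-beta ligand (0.49, adjusted p = 0.0222). It did not hold when any of the 6 arrays compared was left out or when only those 6 arrays were fitted (adjusted p up to 0.169). Ltbp2, a latent TGF-beta binding protein family member, rose by 0.65 at 1 uM (adjusted p = 0.000984) and Bhlhe40, a transcriptional repressor, by 0.65 (adjusted p = 0.00134). Those 2 calls held under each alternative. Pmepa1, a TGF-beta induced membrane protein, and Tgfb1 rose by 0.43 and 0.35 at 1 uM (adjusted p = 0.019 and 0.035), but these calls did not hold in 5 and 7 of 19 alternatives (up to 0.0927 and 0.164). The Bhlhe40 rise at 10 uM (0.41, adjusted p = 0.0443) did not hold in 12 of 19 alternatives. Between PDGF-AB and 1 uM, 5 of the 11 were lower with the ligand and 0 higher, where 2.93% of all genes were lower, and 2 of the 5 calls held under each alternative. These were Ltbp2 (-0.88, adjusted p = 3.03e-05) and Ldlrad4 (-0.48, 0.00647). Pmepa1 (-0.42, 0.0143) was lost in 3 alternatives and Bhlhe40 (-0.42, 0.0179) in 4. Against 10 uM 1 was lower, Ltbp2 (-0.56, adjusted p = 0.00261), where 2% of all genes were, and its call held.

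Receptors through which CCN proteins act were also measured, 12 of 12. With PDGF-AB 0 rose and 0 fell (0.12% and 0.211% of all genes). At AG1296 1 uM 1 rose and 2 fell (1.88% and 1.33% of all genes), and at 10 uM 1 rose and 1 fell (1.21% and 0.672%). Lrp1, an endocytic receptor that binds CCN2, rose from 8.36 ± 0.06 (SD, n = 3) to 9.07 ± 0.05 and 9.20 ± 0.14 (differences of 0.70 and 0.83, adjusted p = 0.00272 and 0.00135). Cd44, the hyaluronan receptor, fell by 0.58 at 10 uM (adjusted p = 0.00358). Its fall of 0.42 at 1 uM (adjusted p = 0.0181) did not hold without any 1 of the 6 arrays compared (adjusted p up to 0.082). The fibronectin receptor subunit Itga5 fell by 0.48 at 1 uM (adjusted p = 0.00772). Between PDGF-AB and AG1296 1 uM, 3 of the 12 receptors were higher with the ligand and 1 lower (2.28% and 2.93% of all genes), and against 10 uM again 3 were higher and 1 lower (1.42% and 2%). In each of these comparisons 2 of the 4 calls held under every alternative. Itgb3, which pairs with the αv subunit in a receptor of CCN1, was higher with PDGF-AB than at 1 uM by 0.86 and than at 10 uM by 0.68 (adjusted p = 0.000912 and 0.00768), and both calls held. The Itgb3 means were 5.58 with PDGF-AB and 4.72 and 4.90 at the 2 doses, the latter close to the array medians of 4.02 to 4.13. Itga5 was higher than at 1 uM by 0.53 (0.00218) and Cd44 higher than at 10 uM by 0.56 (0.00206), which held too. The other 4 calls did not hold throughout. Against 1 uM these were Cd44 (0.40, adjusted p = 0.016, lost in 4 of 19 alternatives) and the integrin subunit Itgb5 (-0.35, 0.0378, lost in 10). Against 10 uM they were the heparan sulphate proteoglycan Sdc4 (0.41, adjusted p = 0.0136, lost in 2) and Lrp1 (-0.50, 0.0263, lost in 4).

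Array medians lay between 4.02 and 4.13, and arrays of a group correlated across genes at r of 0.992 to 0.996. Of 10 fibroblast markers 9 were measured; the platform annotation gives Ly6a, the SCA1 gene, no probe set of its own. Of 8 endothelial markers, 6 lay below every array median, and so did 4 of 7 leukocyte and 3 of 7 pericyte markers. Other markers of these lists reached the lowest array median on at least 1 array. Averaged over the 12 arrays, Mcam was at 6.78, Lyz2 at 5.80, Notch3 at 5.71 and Egfl7 at 4.89, above the medians. Tek, Cspg4, Csf1r, Cd68 and Des averaged 3.83 to 4.16, near them. Markers that were called are given with their differences beside each comparison.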

How the data were processed

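Total RNA from 12 samples was hybridised to 1-colour Affymetrix arrays. The deposited log2 values, 1 per probe set, were made by the authors with RMA, which corrects background, normalizes between arrays and summarises probes, and with limma, per the submitters' processing notes; versions and the genome build are not given in the labels used here. The log base was inferred from the values' range. Of 28853 probe sets, 21789 carry 1 gene symbol, 1621 several and 5443 none in the platform annotation. Where a gene had several such probe sets, the highest mean over the 12 arrays chose among them. This concerned 999 genes and 0 of the 8 described.

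A mean per group was fitted to all 12 arrays with limma 3.58.1 in R 4.3.3, followed by empirical Bayes moderation (prior degrees of freedom 5.35, residual 8). Tests are two-sided, adjusted by Benjamini-Hochberg over 19938 genes within each of 6 comparisons, and called under 0.05. Errors beside differences are standard errors of the fit. No filter on dim genes was applied, and precision is limited by 3 arrays per group. The fit was tested on simulated data. The genes and lists were chosen with earlier results of these data known. From each list at least the 4 called genes with the smallest adjusted p per comparison were named, or all where fewer were called. Yap1, Wwtr1 and Tead1 were always named. For each gene that passed the F test, the 3 with the highest Pearson r were named, leaving out predicted and small RNA genes. Promoters were searched with Python 3.11.15. Replicate numbers shared by the groups were checked for pairing. Alternatives left out each array, blocked by replicate number, or changed the normalization, filter, moderation, arrays or features.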

Additional observations from a re-analysis of the deposited data

Results flagged for a closer look

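The effect of AG1296 on F3 differed between the doses by a direct test. The effect at 10 uM minus that at 1 uM, both against untreated cells, was -0.77 on the log2 scale (limma, adjusted p = 0.0138), with F3 at 8.31 ± 0.12 at 1 uM and 7.55 ± 0.07 at 10 uM (SD, n = 3). Every 10 uM array lay below every 1 uM array. This F3 call did not hold without AG1296 1 uM replicate 2 or 3 and without AG1296 10 uM replicate 1 or 3 (adjusted p up to 0.0828), while the difference stayed between -0.83 and -0.72.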

How the results depend on the processing

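Each of the 48 differences of the 8 genes was recomputed under 21 alternatives. Of these 1008 values, 956 kept their sign and their side of the threshold, 28 were no longer called, 12 became called and 12 changed sign. The sign changes were confined to Amotl2, Ccn3 and Ankrd1, in differences that were not called: on leaving out an array, Amotl2 ranged from -0.051 to 0.085 at AG1296 1 uM against untreated, from -0.17 to 0.045 for PDGF-AB against untreated and from -0.18 to 0.036 for PDGF-AB against 1 uM. Ccn3 ranged from -0.018 to 0.17 between the doses and from -0.11 to 0.075 for PDGF-AB against 1 uM, and Ankrd1 from -0.10 to 0.025 for PDGF-AB against 10 uM. After quantile normalization, Amotl2 at 1 uM was at -0.0061 and Ankrd1 for PDGF-AB against 10 uM at 0.070.

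The number of the 8 genes called ranged, over fits without 1 array, from 0 to 1 for PDGF-AB against untreated, from 1 to 2 for AG1296 1 uM against untreated and from 1 to 3 for PDGF-AB against 10 uM. With only the 6 arrays compared, which leaves fewer samples, these counts were 0, 1 and 1, where 0.0351%, 2.29% and 1.96% of all genes were called. An intensity trend and robust moderation gave 2 genes for PDGF-AB against untreated, 4 for PDGF-AB against 10 uM and 6 in the F test. It called 0.802%, 5.4% and 8.08% of all genes there, beside 0.331%, 3.42% and 5% without it, so calls over all genes rose as well; the cause was not tested. Replicate numbers did not pair the arrays by the rule used: the correlation of deviations between arrays of the same number was above 0.1 in 9 of 18 pairs and in no comparison in every pair. It was not even across numbers, however. Arrays of replicate 2 were above 0.1 in every comparison (0.15 to 0.30), and those of replicate 1 in none (up to 0.07). For replicate 3 the values ran from -0.03 to 0.22. With the replicate number as a fixed block the counts of called genes were 1, 2, 2, 0, 3 and 2 in the 6 comparisons and 3 in the F test, as without the block. Of 66 called differences of list genes, 40 kept their call under every alternative run on them and none changed sign.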
